A study of Zea mays with 112 samples.

Results

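NRP1, NAM-related protein 1 of maize, was set beside 3 other transcription factors (TFs) of the NAC family, NACTF2, NACTF11 and NACTF29, by the positions of their binding sites in the B73 genome. NAC proteins are plant-specific TFs named after the genes NAM, ATAF and CUC. They hold DNA through a conserved domain near their N-terminus, usually as dimers, and many of them recognise words built around a CACG core. NRP1 is known as a maternally expressed, imprinted gene of the endosperm, the tissue that stores starch and zein proteins in the kernel, and other NAC factors of cereals are known to act on storage protein and starch genes.

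The 4 lists (NRP1, gene Zm00001d040189; NACTF2, Zm00001d022517; NACTF11, Zm00001d028995; NACTF29, Zm00001d047554) were taken by name, and the series holds 108 others. They were chosen by the measured sharing of their strongest sites. Sharing among them, and its rise with the strength of sites, is therefore given as a description, without a test. The lists of NACTF5 (Zm00001d005208), NACTF6 (Zm00001d013003), NACTF49 (Zm00001d034601) and NACTF109 (Zm00001d042609) served as the contrast, and the series holds 14 NAC lists in all.

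Each list is that of 1 sample of ampDAP-seq, a binding assay in the test tube. Each TF was produced with a HaloTag in a wheat germ system, immobilised on beads and incubated with PCR-amplified DNA from B73 leaves collected 14 days after germination. Amplified DNA has neither nucleosomes nor methylation, so a site is one that the bare sequence allows, and nothing here shows binding in endosperm cells. Each TF has 1 list and no replicate list. The NRP1 and NACTF2 lists are marked as merged without a statement of what was merged.

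The words that the study lists as the representative motif of each TF are shown because they give the sequences it reports for the 8 proteins. Those of NACTF6 and NACTF49 are marked as found by centriMo, which the paper used for known motifs of a database, and the others by streme. Of each word the longest stretch without ambiguous letters is printed, which is the whole word for NACTF29, NACTF2, NACTF49 and NACTF5. Capitals mark the longest run of bases shared with the NRP1 word on either strand, the first such run where several are equally long.
NRP1: ACGCAATC
NACTF11: cACGCAATC
NACTF29: CAAggcatc
NACTF2: tCAAgca
NACTF109: acACGC
NACTF49: cgGCAcaagt
NACTF5: aaCAAgaaacat
NACTF6: acACGgca
The NACTF11 word held 8 bases of the NRP1 word in a row, the NACTF109 word held 4 and the other 5 words held 3. Words were not searched for at the summits, since no genome sequence of the build was used here.

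The list of NRP1 was the longest of the 14 NAC lists. It held 170007 peaks, against 109772 for NACTF2, 90219 for NACTF29 and 77893 for NACTF11. The median peak signal, the peak caller's own measure of strength with no scaling between libraries, was 50.0 for NRP1, 37.6 for NACTF2, 30.0 for NACTF29 and 28 for NACTF11. The 4 lists had 111973 ± 40855 peaks (SD, n = 4 lists) and the other NAC lists 82928.5 ± 43989 (SD, n = 10), a difference within the spread between TFs (exact permutation test over lists, two-sided, adjusted p = 0.53 over 2 measures). Their median signals, 36.4 ± 9.97 (SD, n = 4) against 34.2 ± 3.18 (SD, n = 10), did not pass either (exact permutation test, adjusted p = 0.53). Signal is not scaled between libraries, so this test cannot decide on strength of binding. Without the 2 merged lists the difference in peak number went from 29044 to 1127.5 (exact permutation test, adjusted p = 1.0), and that in median signal turned from 2.16 to -5.24, with an exact adjusted p of 0.12. Read depth is not in the files, so intervals below cover the counting of loci only.

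Between 28% and 69.2% of the peaks of 1 list had a summit of another of the 4 lists within 100 bp. Of the NRP1 peaks, 33.2% lay by a NACTF29 summit, 30.8% by NACTF11 and 28% by NACTF2. Seen from the shorter lists, 69.2% of NACTF11 peaks, 65.5% of NACTF29 peaks and 44.1% of NACTF2 peaks lay by an NRP1 summit. Averaged over both directions, NACTF11 and NACTF29 shared most (52.7%), with 56.0% of the former near the latter and 49.5% in return.

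The 4 lists are not simply the ones that lie closest to NRP1. NACTF126, which is outside the rule, lay within 100 bp of 36% of NRP1 peaks and so came before all 3 partners, and NACTF65 with 29.7% came between NACTF11 and NACTF2. Among the 5000 strongest peaks of each list, set against all peaks of the other, the mean share with NRP1 was 92.2% for NACTF11, 90.7% for NACTF29 and 86.3% for NACTF2. The same share was 83.7% for NACTF126 and 81.0% for NACTF65, just outside. NACTF2 is thus the partner with the least sharing in every one of these measures, and all 5 stood far above NACTF109, the next list, at 8.58% of NRP1 peaks.

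The 8 lists formed 2 blocks by their sharing. Averaged over both directions, a pair among the 4 lists shared 36.1% to 52.7% of its peaks (6 pairs, median 46.9%) and a pair among the contrast lists shared 48% to 55.9% (6 pairs, median 49.4%). A pair with 1 list from each block shared 4.60% to 13.2% (16 pairs, median 7.59%). NACTF11, NACTF29, NACTF49 and NACTF109 carry run identifiers with the same first 5 digits. Their 4 pairs across the blocks shared 5.0% to 10.7%, NACTF11 with NACTF29 shared 52.7% and NACTF49 with NACTF109 shared 50.3%. The members were chosen on such shares, and the part of the run in them was not tested.

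Summits of the 4 lists were chained into loci wherever neighbours lay within 100 bp, which gave 260966 loci. All 4 lists had a summit in 22025 of these, 8.44% of the loci, called common loci below. NRP1 alone held 84406 loci, NACTF2 alone 47678, NACTF29 alone 15531 and NACTF11 alone 13923, so 61.9% of all loci belonged to 1 list. Among loci of 3 lists, the set without NACTF2 was the most frequent, with 13076 loci, followed by the set without NACTF11 with 9745, the set without NACTF29 with 4670 and the set without NRP1 with 2705. Left to NRP1, NACTF11 and NACTF29, without NACTF2, the count of loci held by every list rose to 34789, the only removal of a list that moved it more than 1.5 times.

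**Figure D1:**
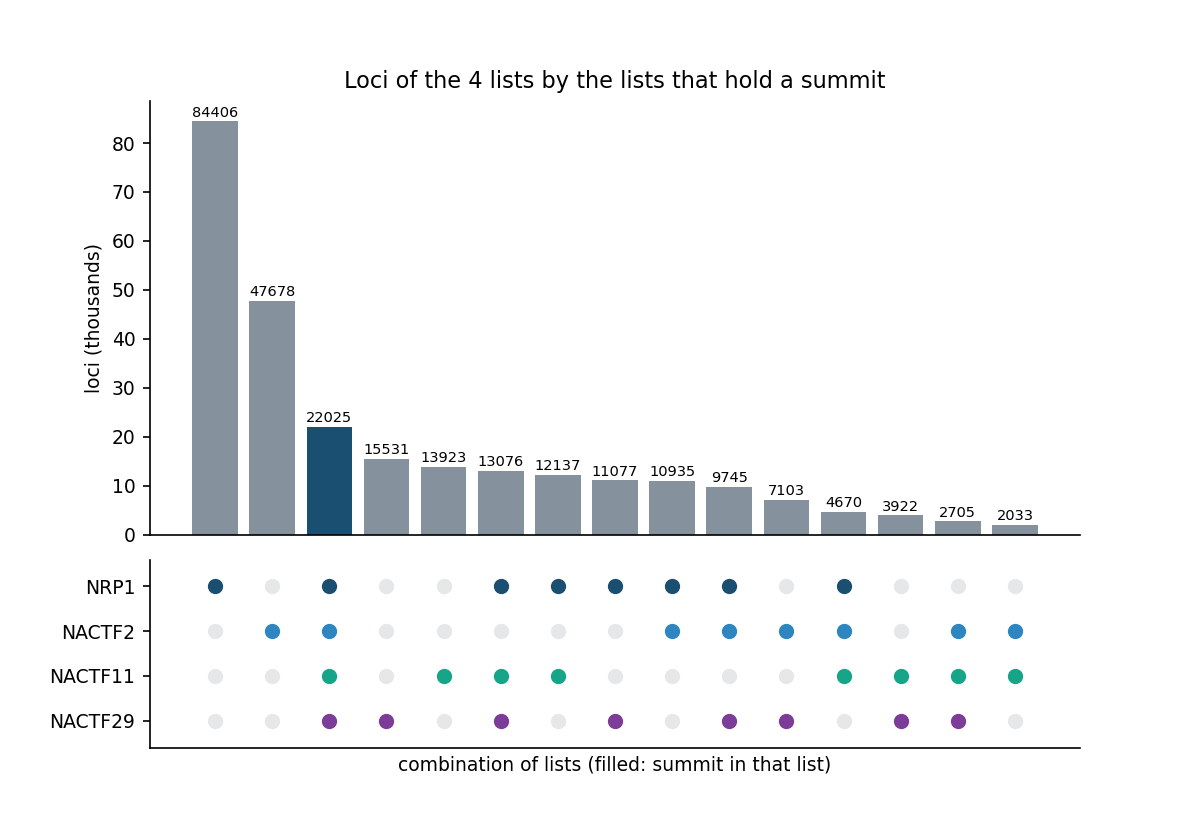
Number of loci (bars, with the count on top) for each of the 15 combinations of the 4 lists, with filled points below for the lists that hold a summit. The combination of all 4 lists, the dark bar, holds 22025 loci and ranks behind the loci of NRP1 alone (84406) and of NACTF2 alone (47678).

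The common loci were short, though the link of 100 bp between neighbours itself limits their span. In 71.9% of them each list had exactly 1 summit, and the distance from the first to the last summit had a median of 52 bp (quartiles 9 and 98 bp). They took up 13.7% of the NRP1 peaks, 21.9% of the NACTF2 peaks, 29% of the NACTF29 peaks and 31.8% of the NACTF11 peaks. Private peaks, in loci of 1 list, were 49.7% of the NRP1 list and 43.5% of the NACTF2 list but only 17.9% of NACTF11 and 17.2% of NACTF29. The 2 merged lists are therefore also the 2 longest and the 2 with the most private peaks, and the part of merging in this was not tested. When each list was cut to its 77893 strongest peaks, NRP1 kept 24213 private loci and the common loci numbered 17506. With only peaks of −log10 q of at least 10, 30141 NRP1-only and 7275 common loci were left.

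Common sites tended to be the stronger sites of every list. The lists were chosen by the sharing of their strongest sites, so some link of strength with sharing follows from that choice. The values by strength here and below are therefore a description, and the part of the choice in them was not tested. The strength of a summit is given as its percentile by signal within its own list, where 100 is the strongest. The strongest NRP1 summit of a common locus had a median percentile of 87.3 (quartiles 71.5 and 95.1), and that of an NRP1-only locus 34.2 (quartiles 16.4 and 55.6). In signal these medians were 98.7 and 42, a ratio of 2.35. Only 2.11% of the NRP1-only summits were above the median of the common ones.

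The other lists had the same order. For NACTF2 the median percentile was 80.9 in common loci and 34.6 in its private loci, with median signals of 63.2 and 32. For NACTF11 it was 75 and 30.8, with signals of 46 and 22.0. For NACTF29 it was 81.6 and 25.5, with signals of 63.7 and 21.5, the widest gap of the 4 lists at a ratio of 2.96. Each list ends at the threshold of the peak caller, with a lowest signal from 10.3 for NACTF11 to 27 for NRP1, and the part of these thresholds in the gap was not tested.

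The rise with sharing was graded. NRP1 summits had a median percentile of 34.2 in loci of NRP1 alone, 53 where 1 other list joined, 70.3 where 2 joined and 87.3 where all 3 did. Among loci of NRP1 and 1 partner, NRP1 was stronger beside NACTF11 (58.8) than beside NACTF29 (53.6) or NACTF2 (46.3), and among loci of 3 lists it was weakest where NACTF11 was the one missing (64.8). Within common loci the ranks of the lists ran together, with Spearman's rho from 0.42 between NRP1 and NACTF2 to 0.67 between NACTF11 and NACTF29 over 22025 loci, which share the same input DNA.

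With the NRP1 list cut by signal into 10 nearly equal parts, the share of peaks in common loci went from 1.83% in the weakest 10% (signal 27 to 32) to 28.7% in the part below the strongest and 55.9% in the strongest 10% (signal 109.1 to 902). The NRP1-only share went the other way, from 77.6% to 6.54%. In the strongest 10% of NACTF29 84% of peaks were in common loci, of NACTF11 79.2% and of NACTF2 69.7%. All of the 100 strongest peaks of NACTF2 and of NACTF11 lay in common loci, as did 97 of NACTF29 and 87 of NRP1.

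**Figure D2:**
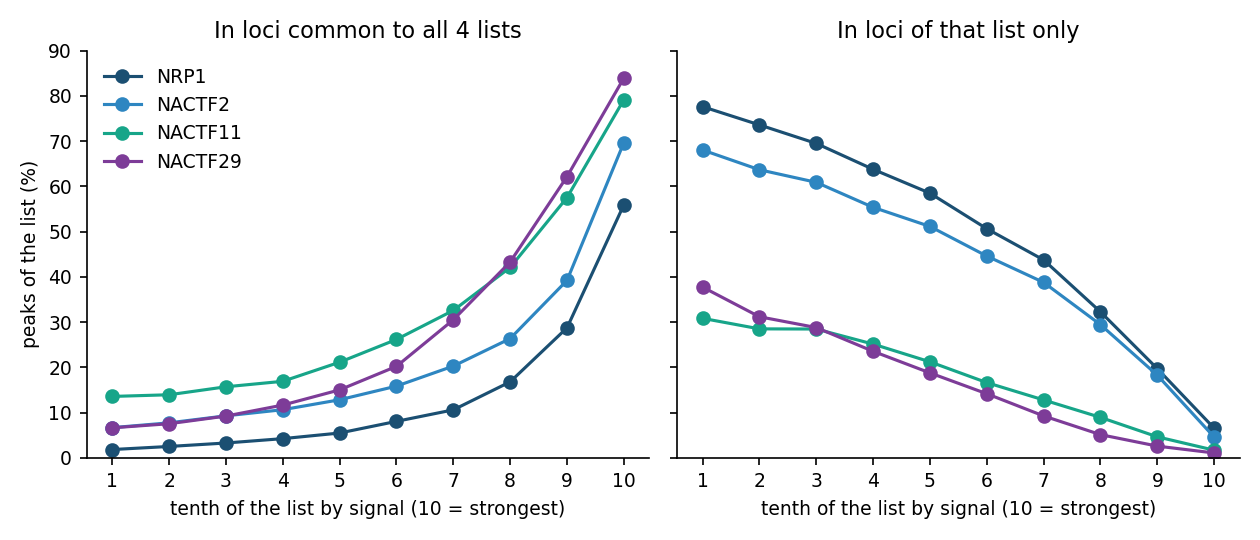
Share of the peaks of each list (%) that lay in common loci (left) or in loci of that list alone (right), in 10 nearly equal parts of the list by signal (10 = strongest). In the strongest part 55.9% of NRP1 peaks and 84% of NACTF29 peaks are in common loci, and every line on the right falls from the weakest to the strongest part.

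The strongest common locus by mean percentile was chr10:52764014-52764100 (B73 v4; positions are those of the first and last summit). The signal there was 842 for NRP1, 744.3 for NACTF2, 1786.6 for NACTF11 and 1182.1 for NACTF29. At chr3:77033097-77033204 the NRP1 signal was 499, that of NACTF11 1130.9, that of NACTF29 1041.8 and that of NACTF2 1245.1, the highest in its list. At both places the contrast lists had no summit within 100 bp, while NACTF126 and NACTF65 had one.

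The next 3 were of the same kind. At chr2:130518447-130518449 all 4 summits fell within 2 bp, with signals of 648 for NRP1, 869.7 for NACTF2, 836 for NACTF11 and 1118 for NACTF29. At chr5:106497543-106497600 the signals were 768, 598.5, 864.4 and 838.2 in that order, and on the unplaced contig ctg113, at 4166 to 4315, they were 442 for NRP1, 1004.4 for NACTF11 and 744.6 for NACTF29. The loci on chromosomes 10 and 5 also had the same layout, with NACTF11 and NACTF65 on the NRP1 summit, NACTF29 at -2 bp, NACTF2 at -3 bp and NACTF126 at -4 bp, and each had a MYB73 summit. All 5 held NACTF126 and NACTF65 and none held a contrast list. Genes at these positions are not named, since no annotation of B73 v4 was used here.

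The 5 strongest NRP1-only loci had NRP1 signals of 345 to 474. The first 2, chr10:50217123 (signal 474) and chr10:50219286 (signal 455), are 1 summit each on the same stretch of chromosome 10, with the nearest partner summit 756 and 577 bp away. A contrast list held both: NACTF109 had a signal of 230 at the first and 279 at the second. The others were at 7028 (signal 409.2) and 13811 (signal 345) of contig ctg71 and at chr7:41762533 (signal 356), where none of the 3 partners had a summit within 10000 bp. The one at 13811 had no summit of any other list of the series.

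Over all NRP1-only loci, 33408 of 84406 (39.6%) had no summit of the other 108 lists within 100 bp, beside 27% of all loci of the 4 lists and 3.17% of the common loci. Some NRP1-only loci were near misses. The nearest summit of a partner lay over 100 and up to 200 bp away in 10.8% and over 1000 bp away in 78.3%. No background share was computed for these distances. With summits linked at 200 bp, NRP1-only loci numbered 74885. NACTF126 or NACTF65 had a summit at 27.6% of NRP1-only loci and at 93.2% of common loci, beside 45.0% of all loci of the 4 lists. None of the other 10 NAC lists was present at 66.4% of NRP1-only loci, 5.51% of common loci and 48.4% of all loci.

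Only 699 common loci held none of the other 108 lists. The strongest of them was chr4:83266810-83266891, with signals of 204 for NRP1, 291 for NACTF2, 180.9 for NACTF11 and 418 for NACTF29. The second was chr2:154921814-154921821, where the signals were 155, 244.4, 157 and 226.6 in that order. In both the NACTF11 summit fell on the NRP1 summit.

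Within common loci the summits of the 4 lists kept fixed distances to the base. The peak caller used by the study joins peak calling to a search for enriched words, so summits tend to be placed on words. NACTF11 had its nearest summit on the very base of the strongest NRP1 summit in 52.5% of the 21404 common loci where one lay within 100 bp. NACTF29 sat 2 bp away in 50.5% of 21508 loci and NACTF2 sat 3 bp away in 32.6% of 21302 loci. The median distances were 0, 2 and 10 bp.

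NACTF2 was the least fixed of the partners. It lay within 5 bp of NRP1 in 41.5% of those loci, against 53.7% for NACTF29 and 56.4% for NACTF11, and its next most frequent distance was 5 bp (5.40%). For NACTF29 the next was 10 bp (7.10%). Within common loci the distances held less often at weak sites. NACTF11 was on the NRP1 base in 57.8% of common loci with an NRP1 percentile over 90 and in 38.5% of those up to 50. The distances were not limited to common loci. Over all NRP1 peaks with a summit of the partner within 100 bp, NACTF11 was at 0 bp in 54.9% of 52391. NACTF29 was at 2 bp in 54.7% of 56445 and NACTF2 at 3 bp in 30.9% of 47620. For non-NAC lists the distance was taken in common loci, for the 69 lists with a summit within 100 bp in at least 100 of them. The median distance of a list from NRP1 had a median of 49 bp and was 22 bp at the lowest. The share within 5 bp had a median of 3.66% and was 33.2% at the highest. A fixed distance was not particular to NAC lists: the highest share at 1 distance among these 69 was 63.2%, for MRP1 at 92 bp (424 loci).

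**Figure D3:**
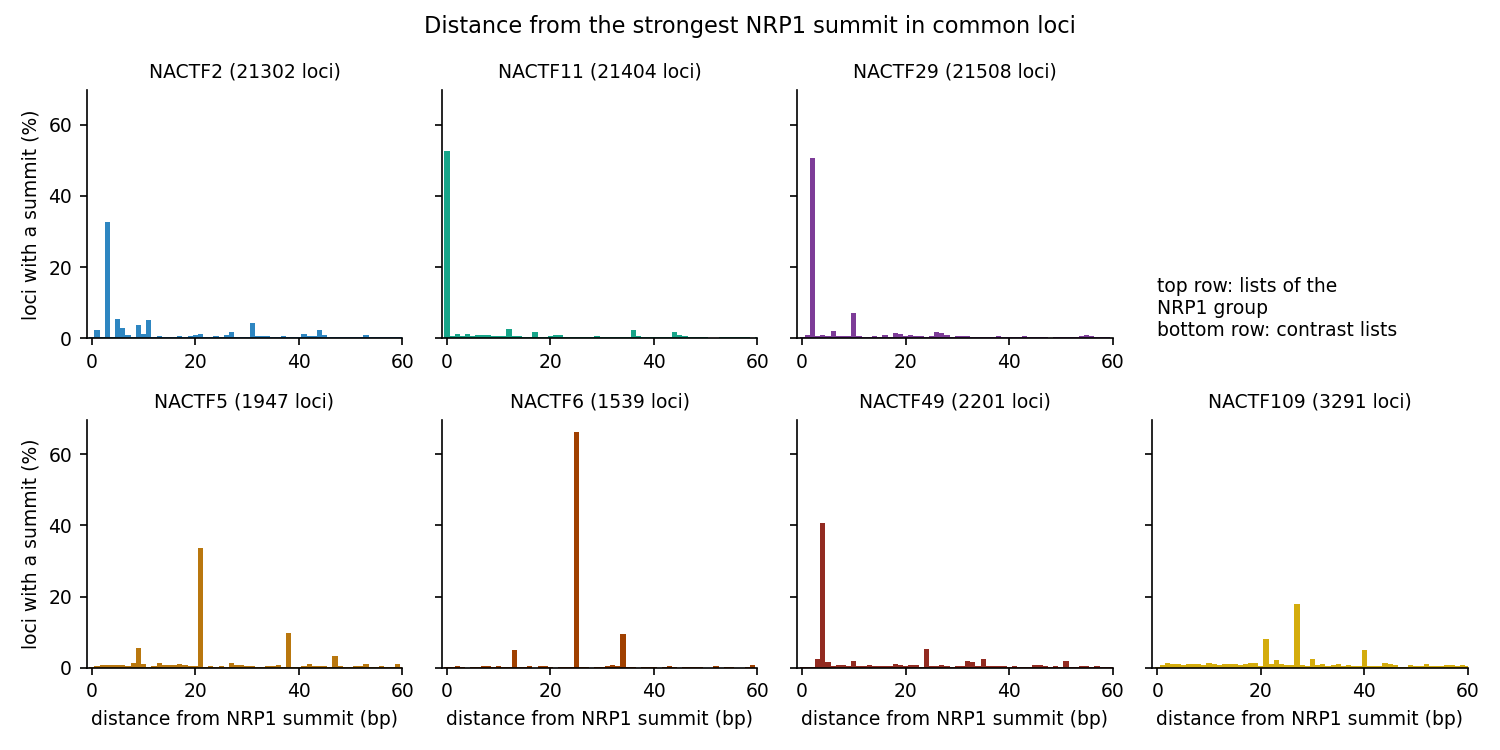
Distance in bp from the strongest NRP1 summit to the nearest summit of each other list in common loci, as the share (%) of the loci with such a summit within 100 bp (number in each title), drawn up to 60 bp. NACTF11 peaks at 0 bp, NACTF29 at 2 bp and NACTF2 at 3 bp, while the contrast lists in the bottom row peak at 21, 25, 4 and 27 bp.

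The contrast lists met the 4 lists at a minority of loci. At least 1 of the 4 contrast lists had a summit within 100 bp of 19.7% of the common loci (95% Wilson interval 19.1% to 20.2%), of 7.32% of the NRP1-only loci (7.15% to 7.50%) and of 10.6% of all loci of the 4 lists. Common loci span more bases (median 52 bp) than NRP1-only loci, nearly all single summits, so the window around common loci was wider. Without chaining, with equal windows, the shares were 17.7% of common and 7.32% of NRP1-only loci. NACTF109 held 17% of common loci, NACTF49 11.2%, NACTF5 9.91% and NACTF6 7.30%. These 4 lists held 7.97%, 5.5%, 4.87% and 2.88% of all loci in the same order, and 5.09%, 3.84%, 2.76% and 1.93% of NRP1-only loci. All 4 were present at 1362 common loci (6.18%), 757 NRP1-only loci (0.897%) and 5295 of all loci (2.03%).

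The higher share at common than at NRP1-only loci was seen at every strength of NRP1. Among NRP1 peaks of the weakest 10% a contrast list was present at 15% of those in common loci and 6.17% of those in NRP1-only loci. In the strongest 10% the shares were 23.3% and 11.5%. Common loci with a contrast list had NRP1 at a median percentile of 90.1 and those without at 86.4, while NACTF11 went the other way, with 72.4 and 75.8.

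From their own side, the contrast lists had few but strong peaks at common loci. Such peaks were 2.96% of the NACTF5 list, 6.83% of NACTF6, 2.61% of NACTF49 and 3.70% of NACTF109. Their median percentiles within those lists were 92.0, 90.6, 88.1 and 79.8, against 47.7 to 49 for peaks at neither common nor NRP1-only loci. At NRP1-only loci the medians were 54.6 to 59.4. Of the 17521 loci common to the 4 contrast lists, 32.7% held at least 1 of the NRP1 group and 8.58% all 4.

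The strongest common locus with all 4 contrast lists was chr8:55681526-55681648. Its signal was 299 for NRP1, 530.8 for NACTF2, 359.8 for NACTF11 and 418.4 for NACTF29. In the contrast lists it was 60.1 for NACTF5, 32 for NACTF6, 36.5 for NACTF49 and 126 for NACTF109. These signals are not scaled between lists. At chr6:78434576-78434665, the second, they were 425.9, 525.9, 201.8 and 526.9 in the NRP1 group and 39.6, 59.7, 127.2 and 145.1 in the contrast lists. The 4 lists ranked above the 98th percentile of their own lists at both loci, and the contrast lists between 54.3 and 95.8.

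Where contrast summits fell in common loci, each list also had a most frequent distance, from 4 to 27 bp. From the strongest NRP1 summit, NACTF6 lay at 25 bp in 66.3% of 1539 loci, NACTF5 at 21 bp in 33.6% of 1947, NACTF109 at 27 bp in 17.9% of 3291 and NACTF49 at 4 bp in 40.8% of 2201. NACTF126 lay at 4 bp in 46.1% of 16474 loci and NACTF65 on the NRP1 base in 56.3% of 13463. Over all common loci the most frequent distances of NACTF126, NACTF65 and NACTF49 were thus 4 bp or less, and those of NACTF5, NACTF6 and NACTF109 were 21 bp or more.

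The contrast distances fell mostly in 1 arrangement. Common loci were set apart by the 2 most frequent distances of NACTF29 from NRP1, a choice made after the distances were seen, so what follows is a description. In 10864 common loci (49.3%) the distance was 2 bp and in 1528 (6.94%) it was 10 bp. Positions were read with the NACTF29 side as positive, because strand is not given. The 10 bp arrangement held, on 1 side of NRP1, 945 of the 1020 common loci with NACTF6 at its most frequent distance, 606 of 655 for NACTF5, 810 of 897 for NACTF49 and 530 of 588 for NACTF109.

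In the 2 bp arrangement NACTF11 and NACTF65 fell on the NRP1 base in 82.4% and 82.7% of the loci where they lay within 100 bp of it, NACTF2 at +3 bp in 49.4% and NACTF126 at +4 bp in 67.0%. A contrast list was within 100 bp of the locus in 15.5%, close to the 15.6% of the 9633 common loci in neither arrangement. The contrast lists had other places there, each with a smaller share of the summits than in the 10 bp arrangement. The most frequent place of NACTF6, +13 bp, took 25.7% of its 276 summits, that of NACTF109, +21 bp, 19.2% of 1216, and that of NACTF5, +9 bp, 18.9% of 472.

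In the 10 bp arrangement a contrast list was present at 74.5% of loci and all 4 at 69.1%. NACTF5 was at 70.4%, NACTF6 at 69.8%, NACTF49 at 71.2% and NACTF109 at 74.0%. Shares at a position are of the loci with a summit within 100 bp of the strongest NRP1 summit. NACTF6 sat at -25 bp in 89.1% of 1061 loci, NACTF5 at -21 bp in 56.4% of 1075, NACTF109 at -27 bp in 47.3% of 1120 and NACTF49 at +4 bp in 74.7% of 1084. NACTF2 was most often at +11 bp (62.2%), beside NACTF29, and NACTF11 on the NRP1 base (57.1%) with a second place at +79 bp (14.8%). NACTF65 was most often at +79 bp (49.4% of 854) and NACTF126 at +83 bp (21.8% of 1186), away from the places they had in the 2 bp arrangement.

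Of the 4328 common loci with at least 1 contrast list, 1138 (26.3%) were of the 10 bp arrangement, 1683 (38.9%) of the 2 bp arrangement and 1507 (34.8%) of neither. By list, the 10 bp arrangement held 66.3% of the common loci with NACTF6, 49.3% of those with NACTF5, 44.2% with NACTF49 and 30.2% with NACTF109, and 1056 of the 1362 common loci with all 4 contrast lists. HB91, a homeobox factor by its name, was present at 45.9% of the loci of the 10 bp arrangement and at 4.29% of those of the 2 bp arrangement. In the 10 bp arrangement it sat at -42 bp in 98% of the 687 loci with its summit within 100 bp of the NRP1 summit. With the contrast lists counted in, a median of 7 other lists had a summit at a locus of the 10 bp arrangement and 2 at a locus of the 2 bp arrangement. NRP1 was strong in both, with median percentiles of 91.9 and 88.2.

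**Figure D4:**
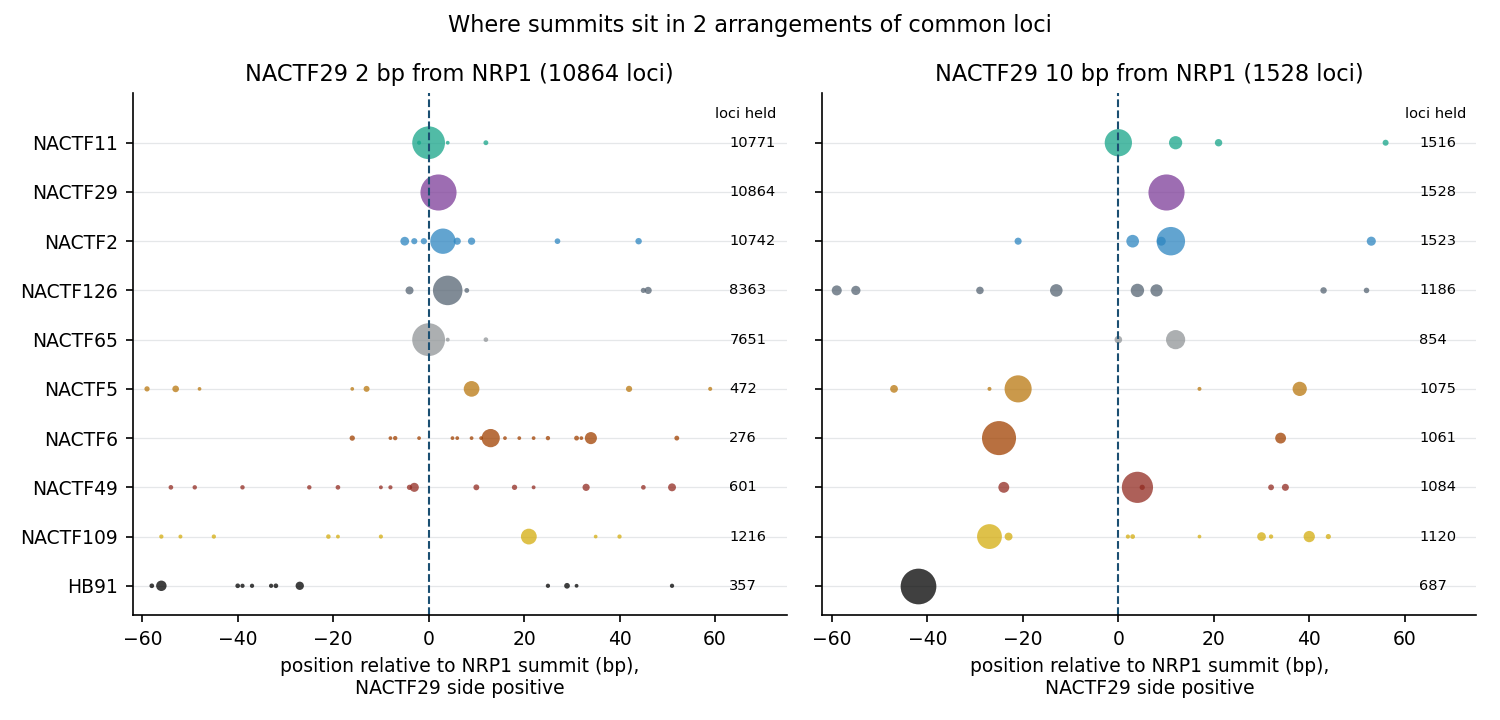
Summit positions in bp relative to the strongest NRP1 summit (dashed line) in common loci with NACTF29 at 2 bp (left) or 10 bp (right), with the NACTF29 side positive. Point area is the share of a list's summits at that position (positions with at least 1% are drawn, between -60 and 60 bp). The number at the right, headed loci held, is the loci with a summit of the list within 100 bp of the strongest NRP1 summit. By this count NACTF6 is at 276 of 10864 loci on the left and at 1061 of 1528, mostly at -25 bp, on the right.

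The 10 bp arrangement also lay elsewhere along the chromosomes. On chromosomes 1 to 10, 63.6% of its loci (95% Wilson interval 61.1% to 66.0%) were in the outer 25% of the chromosome at either end, against 47% (46% to 47.9%) for the 2 bp arrangement, and the share was higher on 10 of 10 chromosomes. The contrast lists themselves had 54.2% to 58.6% of their peaks there, and the 4 lists 46.3% to 48.5%.

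Common loci as a whole were more central than NRP1-only loci. The outer share was 45.6% (44.9% to 46.3%) for common and 49.5% (49.1% to 49.8%) for NRP1-only loci, lower on 10 of 10 chromosomes, and 48.4% for all loci of the 4 lists. Common loci numbered 9.55 to 11.1 per Mb and NRP1-only loci 37.2 to 41.4 per Mb over the 10 chromosomes, so neither class gathered on 1 chromosome.

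Among the other 108 lists, only NAC lists were found at most common loci. NACTF126 held 78.9% of them and NACTF65 64.8%, beside 32% and 24.8% of all loci and 17% and 13.6% of NRP1-only loci. Outside the NAC family the highest shares of common loci were those of GBF1 (9.82%), BZIP52 (9.80%) and BZIP75 (8.59%), bZIP factors by their names, and the median of the 98 non-NAC lists was 1.12%. At the other end of the NAC lists NACTF134 held 0.0636% of common loci (14 loci, 95% Wilson interval 0.0379% to 0.107%) and 0.0829% of NRP1-only loci (0.0657% to 0.105%), and these intervals overlap. Of the 98 non-NAC lists 74 had a higher share at common than at NRP1-only loci. The window around common loci was wider, since it is counted from their span, and its part in these shares was not tested.

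**Figure D5:**
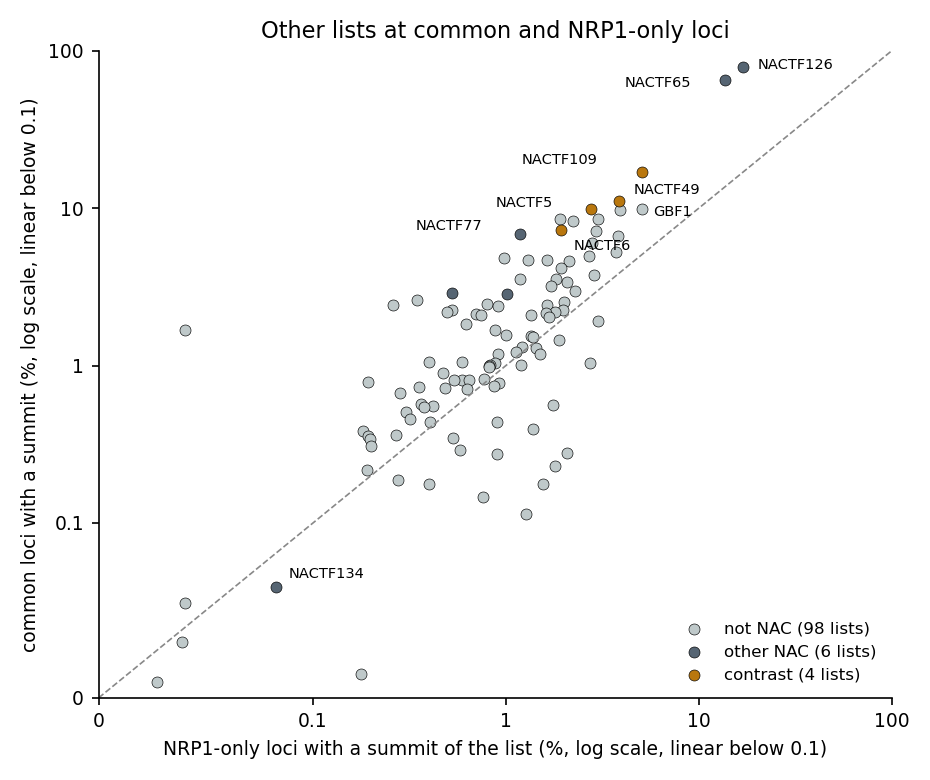
Share of common loci (vertical) against share of NRP1-only loci (horizontal) with a summit of each of the other 108 lists within 100 bp, both in % on log axes that are linear below 0.1; the dashed line marks equal shares. NACTF126 (78.9% and 17%) and NACTF65 (64.8% and 13.6%) stand apart at the top right, and the 4 contrast lists lie between 7.30% and 17% of common loci.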

How the data were processed

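According to the study's methods, trimming (Trimmomatic 0.39) was followed by alignment to B73 v4 (bowtie2 2.4.1), removal of duplicates and peak calling with GEM against an empty HaloTag library. The authors deposited 1 list of 201 bp intervals per TF, with a caller's score (not used), a signal value and the −log10 of a p-value and a q-value. For strength, the deposited signal was ranked within a list. It was used unscaled for medians and their ratios, for the test of median signals between lists and for the values at named loci. All lists of the series entered, each sequence name included. The lowest deposited −log10 q was 3.0. The depth per sample is unknown.

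Summits were chained at 100 bp into loci with Python 3.11.15, pandas 2.3.3 and scipy 1.17.1, and the procedure was tested on simulated lists. Members, contrast lists and measures were chosen with earlier results of these data known. Alternatives were link distances of 20 and 200 bp, −log10 q of at least 10, lists cut to at most 77893 peaks, chromosomes 1 to 10, no chaining and leaving out each list. Named loci were those of highest percentile: 5 common, 5 NRP1-only, 2 common without any other list and 2 with all 4 contrast lists. Named lists beyond the 8 were the NAC lists highest and lowest at common loci and the 3 highest outside NAC. NACTF65, HB91, MRP1 and MYB73 were named after their values were seen. Protein likeness and words at summits were not analysed here.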

Additional observations from a re-analysis of the deposited data

How the results depend on the processing

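Of 49 values under alternatives, 22 kept within their limits, 26 moved and 1 changed sign, the median signal without the 2 merged lists (difference -5.24). With summits linked at 20 bp there were 10241 common loci, the mean of the 3 median offsets was 1.67 bp (4.33 bp at 100 bp), and contrast lists held 12.8% of common and 3.04% of NRP1-only loci. At 200 bp the difference in NRP1 percentile between common and NRP1-only loci was 52.3 (53.1 at 100 bp), the offset 7.0 bp and the contrast shares 23.3% and 9.33%. With −log10 q of at least 10 there were 7275 common and 30141 NRP1-only loci, the percentile difference was 48.3, the offset 7.33 bp, the contrast shares 10.3% and 4.68%, and the outer shares 40.9% and 48.6%. With lists cut to at most 77893 peaks there were 24213 NRP1-only loci, the percentile difference was 48.3 and the contrast shares 17.1% and 6.37%. NACTF6, with 27643 peaks, stayed shorter than the rest. Without chaining the offset was 4.0 bp and the contrast share of common loci 17.7%. Without NACTF2 there were 34789 loci common to the other 3 lists. An alternative chosen after seeing the data, without the loci of the 10 bp arrangement, gave a percentile difference of 52.5, an offset of 4.0 bp and a contrast share of 15.6%. With links of 20 and 200 bp, the stricter q, cut lists, no chaining and chromosomes 1 to 10, common loci had the stronger NRP1 summits and a higher contrast share than NRP1-only loci. Why values moved was not tested. No paired analysis was possible because each TF has 1 list. Protein likeness and words at summits were not run, having no sequences here. With unknown depth and 1 list per TF, a missing summit cannot be told from one below the caller's threshold.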
